A study of Astyanax mexicanus with 6 samples.

Results

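The subject is 510 genes of the Mexican tetra, Astyanax mexicanus, whose DNA was sampled unequally in the cave and the surface morph by whole-genome bisulfite sequencing. Members were chosen by measured values. For each of the 25271 genes in the methylation table, the methylated and unmethylated calls over the gene body were added. A call is taken as 1 read of 1 cytosine, although the sources used here do not define it. Of the 25271 genes, 24844 had 200 or more calls in the cave and surface libraries together. The calls of each library, with 1 added, were divided by that library's total, and the cave share was divided by the surface share. A ratio of 2 or more was found in 384 genes, 1.55% of those measured, and a ratio of 0.5 or less in 126 genes, 0.507%. Because those ratios define the 2 sets, they are given as a description without a test.

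Eyes had been dissected at around 54 hours post-fertilization from wild-type cave morph and wild-type surface morph embryos. RNA and DNA were isolated from them with 1 kit. The cave group consisted of 2 RNA libraries and 1 bisulfite library, and the surface group of the same numbers. The labels do not say how many embryos entered a library or whether the 2 RNA libraries of 1 morph were made from separate groups of fish. The p-values below therefore refer to the spread between libraries, which may be technical only.

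Bisulfite treatment turns unmethylated cytosine into a base read as thymine, so each read reports methylation and also counts as a sample of the DNA it came from. Reads over a gene become more or fewer when a genome carries more or fewer copies of it, when its sequence departs from the assembly the reads are placed on, or when reads of several near-identical copies are divided among them. Cave and surface fish are interfertile forms of a single species, the cave form having lost its eyes during evolution. Repeated genes such as those of 5S ribosomal RNA and the spliceosomal small nuclear RNAs occur in vertebrates as arrays and scattered copies, many of them not functional.

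The bisulfite libraries had similar call totals, with 469015502 gene body calls for cave and 448796711 for surface. The medians were 8322 and 8176 calls per gene, and the median ratio was 0.977 over the measured genes. Every cave value in the table was even, against 50.7% of surface gene body values. Call totals may therefore not compare the depth of the libraries, and what made the cave values even was not tested. RNA counts summed to 132739496 and 117742250 in the cave-labelled libraries, and to 146907747 and 154476181 in the surface-labelled ones. Photoreceptor genes went against the RNA labels: the 10 found of a list of 12 summed to 4429 and 5387 CPM (counts scaled to library total) in the cave-labelled pair, against 225 and 199 in the surface-labelled pair, and each of the 10 was higher in both cave-labelled libraries. Lens markers (382 and 399 against 81.7 and 58.1 CPM) and pigment epithelium markers (1569 and 2044 against 532 and 396) differed in the same direction. Retinal progenitor and neuron markers differed less, at 275 and 531 against 250 and 242 CPM. Of their 7 genes, 3 were higher and 1 lower in both cave-labelled libraries. Forebrain markers summed to 45.7 and 21.8 against 69.1 and 117. Epidermal markers were low in the library labelled cave replicate 2, at 931 CPM beside 9489 in labelled cave replicate 1, 7652 and 9711 in the surface-labelled ones. Skeletal muscle markers were lowest in that library too, with 458 and 40.1 CPM cave-labelled against 121 and 152 surface-labelled, and blood markers were at 17.4 and 18.7 against 54.6 and 29.5. No marker gene was a member. The RNA libraries are therefore called cave-labelled and surface-labelled, and so are the counts from them. In whole eyes, fewer cells of a type and less RNA per cell cannot be told apart. Whether the RNA and bisulfite labels name the same morph, and the part of tissue makeup in the RNA differences of the members, was not tested.

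The 384 genes with more cave calls were mostly unnamed, short and sparsely covered, and their excess was usually moderate. Their median ratio was 2.94, with quartiles of 2.34 and 4.40. The ratio was 2 to 3 in 202 genes, 3 to 5 in 108, 5 to 10 in 43 and 10 or more in 31. No symbol was given for 343 of them (89.3%), against 30.3% of the 24334 genes inside the limits. Another 19 carried only a clone name, which left 22 with a gene symbol. Their median length was 3521.5 bp, against 10586.5 bp in the genes inside the limits, and their median density 663 calls per kb, against 1551.

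The 126 genes with fewer cave calls differed from these in kind. Symbols were given for 44 of them, 42 being gene symbols (33.3%, against 62.3% inside the limits) and 2 clone names. A gene length under 300 bp was recorded for 41 (32.5%). This also held for 16 genes with more cave calls (4.17%) and for 1.40% of genes inside the limits. Their call density was high, with a median of 4163 per kb, and 33 genes (26.2%) exceeded 10000 calls per kb, against 3.05% inside the limits. The median ratio was 0.418. A deficit of 2 to 3 times was seen in 89 genes, one of 3 to 5 times in 26 and a larger one in 11.

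**Figure D1:**
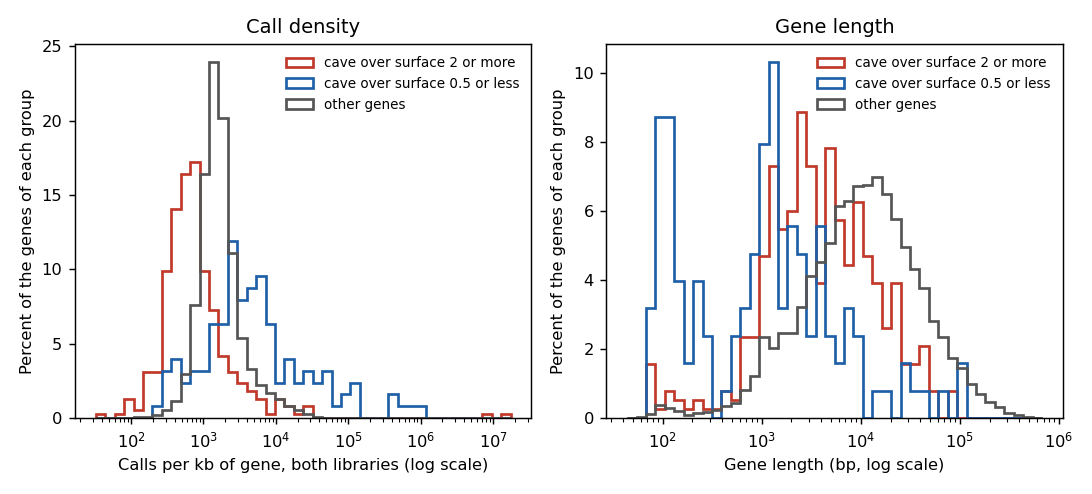
Call density (left, calls per kb in both libraries together, log scale) and gene length (right, bp, log scale) as the percent of genes of each group per bin, for genes with a ratio of 2 or more (red), 0.5 or less (blue) and all others measured (grey). Genes with more cave calls sit left of the others in density (median 663 against 1551 calls per kb), those with fewer cave calls sit right of them (4163), and both groups are shorter.

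At the limits themselves the change was gradual. The genes just inside the upper limit were ENSAMXG00000028150, at a ratio of 2.001 from 296 cave and 141 surface calls, and ENSAMXG00000005212 at 2.004. Just outside it lay ENSAMXG00000001340 at 1.998 and ENSAMXG00000016464 at 1.996. Around the lower limit, ENSAMXG00000008570 at 0.4996 and ENSAMXG00000021052 at 0.4995 were inside, and pcp4b, which encodes a small calmodulin-binding protein, lay outside at 0.501 from 210 cave and 402 surface calls. Members near the limits therefore differ little from many genes that are not members.

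**Figure D2:**
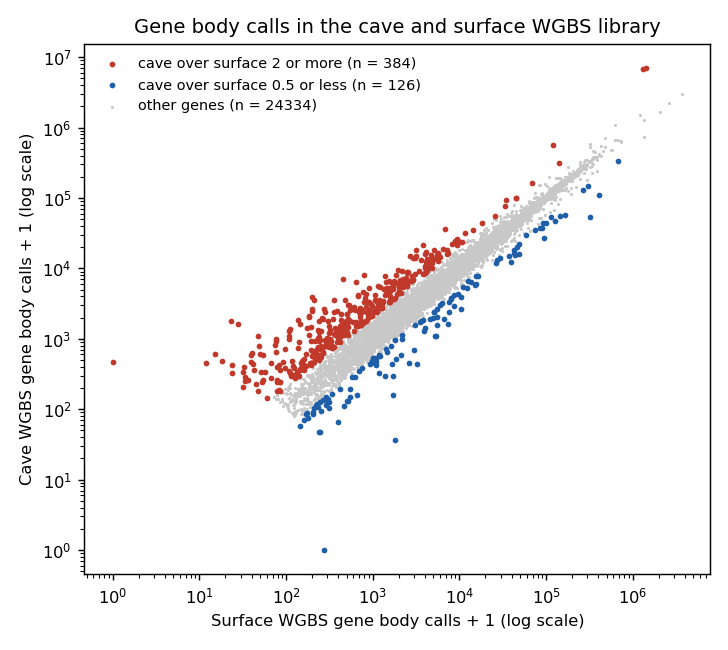
Gene body calls plus 1 of each measured gene in the cave library (vertical) against the surface library (horizontal), both on log scales, with 384 genes of ratio 2 or more in red, 126 of ratio 0.5 or less in blue and 24334 others in grey. Most genes lie along 1 diagonal band, and a pair of red points at the upper right holds between 1325550 and 6997832 calls each.

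Those 2 points carried most of the excess. ENSAMXG00000028856, a 645 bp gene on scaffold KB882193.1 (561842 to 562486), had 6997832 cave and 1431889 surface calls, a ratio of 4.68. ENSAMXG00000025407, a 1037 bp gene on KB871754.1 (1565140 to 1566176), had 6838734 cave and 1325550 surface calls, a ratio of 4.94. All 384 genes together took 16906510 cave and 3792664 surface calls, or 3.60% of all cave and 0.845% of all surface gene body calls, so these 2 genes supplied the bulk of both sums. Neither gene has a symbol. ENSAMXG00000028856 had the highest call density of the 384 genes, 1.31e+07 calls per kb, against a median of 1551 in the genes inside the limits. Whether reads of repeated copies were placed on these 2 genes was not tested. Their methylation was nearly equal in the 2 libraries, 89.6% in cave and 89.5% in surface for ENSAMXG00000028856, and 92.1% in cave and 91.1% in surface for ENSAMXG00000025407.

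The largest ratio belonged to ENSAMXG00000026582, a 74 bp gene on KB872210.1 (47127 to 47200) with 460 cave calls and none in the surface library. With the surface library set to a floor of 3 calls, its cave share was 147-fold higher. A single read can give several calls, so this fold depends on the floor chosen and is not a lower bound. The upstream ratio of ENSAMXG00000026582 was 0.900, near even. ENSAMXG00000028414 (KB872413.1, 49086 to 51804) followed with 1764 cave and 22 surface calls, a ratio of 73.4 with a 95% interval of 50.5 to 122.7. ENSAMXG00000019155 (KB873623.1, 1187 to 18357) had 1602 cave and 27 surface calls, a ratio of 54.8 with an interval of 38.9 to 86.4. These exact Clopper-Pearson intervals cover counting error alone and are too narrow, since calls on a single read are not independent. Why all cave values are even, which also bears on these intervals, was not tested.

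At the other extreme, ENSAMXG00000016555 (KB872819.1, 2587423 to 2587841) had no cave call and 275 surface calls. With the cave library set to a floor of 3 calls, it was 95.8-fold lower there, a fold that again depends on the floor. ENSAMXG00000007534 (KB874080.1, 986 to 4598) had 36 cave and 1808 surface calls, a ratio of 0.0196 with an interval of 0.0133 to 0.0265. For both, the upstream region was also depleted, with ratios of 0.0506 and 0.0905. ENSAMXG00000007556 (KB872279.1, 132633 to 136307) had 160 cave and 1727 surface calls, a ratio of 0.0892, while its upstream ratio of 0.951 was near 1. None of these extreme genes, in either direction, has a symbol.

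Small noncoding RNA genes were the largest class among members with a gene symbol, mainly through genes with fewer cave calls. Of 173 measured small noncoding RNA genes, 26 (15.0%) had a ratio of 0.5 or less and 8 (4.62%) a ratio of 2 or more. They made up 20.6% of all genes with fewer cave calls, 2.08% of those with more, and 0.571% of the genes inside the limits. Such genes often exist as near-identical copies, and reads from one copy can be placed on another, so the ratio of any single copy is uncertain. For that reason the copies of each gene were also added together.

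5S rRNA, the small RNA of the large ribosomal subunit transcribed by RNA polymerase III, had 28 measured copies. Together they held 1201274 cave and 2095414 surface calls, a pooled ratio of 0.549. The median copy was at 0.653, and the copy with the most calls, ENSAMXG00000027146, had 736142 cave and 1342135 surface calls, a ratio of 0.525 just outside the limit. Below 0.5 were 6 copies, with ratios of 0.312 to 0.496, and 1 copy was above 2. The 6 held 95708 cave and 216067 surface calls together. The best covered of them were 3 copies: ENSAMXG00000026807 on KB881205.1 (77 to 193) had 34718 cave and 75281 surface calls, ENSAMXG00000026808 on KB873547.1 (530 to 648) had 29830 and 58703, and ENSAMXG00000027134 on KB882212.1 (955137 to 955255) had 15818 and 48303. The lower cave coverage of 5S rRNA thus reached beyond the copies inside the limit, in libraries without a replicate. The copy above 2, ENSAMXG00000027228 on KB882230.1, had 486 cave and 151 surface calls, a ratio of 3.07.

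Among the spliceosomal RNAs, which build the machinery that removes introns, U4 had 5 measured copies at a pooled ratio of 0.491, and 2 of them were members, at 0.164 (450 cave and 2629 surface calls on KB871834.1) and 0.258. U2 had 13 copies at a pooled ratio of 0.724. Of these, 4 had fewer cave calls, the most covered with 16320 cave and 42628 surface calls (ratio 0.366), and 1 had more, with 242 cave and 52 surface calls (ratio 4.39). U6 had 9 copies, 2 of them low, and a pooled ratio of 0.713. U1 had 1 low copy of 4, at 0.472, and a pooled ratio of 0.80. U11 of the minor spliceosome had 1 low copy of 2, at 0.186 from 46 cave and 241 surface calls. The members of higher ratio were single copies of U5, at 2.85 with 1 of 8 copies affected and a pooled ratio of 0.959, and of U12, at 3.01 with 1 of 4 copies affected. Among these names, copies of U2 fell on both sides, while the member copies of U1, U4, U6 and U11 were all low and those of U5 and U12 high.

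The nucleolar RNA U3, which takes part in the processing of ribosomal RNA precursors, shows that spread within a name. Its 11 copies ranged from 0.157 (64 cave and 396 surface calls) to 8.13 (288 cave and 33 surface calls), with a pooled ratio of 0.876. The related ACEA_U3 had 5 copies, 1 at 3.41 and 2 at 0.449 and 0.472. On KB882149.1 a U3 copy at 2.28 (1076318 to 1076453) lay next to an ACEA_U3 copy at 0.472 (1077325 to 1077539). The signal recognition particle RNA Metazoa_SRP, which helps to target secreted proteins, had 5 copies from 0.208 to 2.23 and a pooled ratio of 0.536. A pair of them on KB871768.1, at 688632 to 688929 and 693318 to 693615, had 540 cave and 231 surface calls in one and 656 cave and 1461 surface calls in the other. Neighbouring copies of a single name thus fell on opposite sides. Small nucleolar RNAs that guide pseudouridylation (SNORA23, SNORA63, SNORA71 and SNORA84) each had 1 low copy, at ratios of 0.374 to 0.472. For names, not positions, the RefSeq annotation of the AstMex3_surface assembly was consulted. It lists 9252 ribosomal RNA, 1314 small nuclear RNA and 297 small nucleolar RNA genes, and it holds 21 of the 63 symbols found among the members.

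Protein-coding symbols were few: 14 among the genes with more cave calls and 16 among those with fewer. Of these, tssk6, CAMSAP3, trim35-1, znf1010, ccl36.1, calcr, IGKC and taar11 are discussed by a rule based on the size of the ratio or on class, and the rest, snx19a included, were named after their values were seen. tssk6, a serine kinase known from the mammalian testis, had 18 copies and a pooled ratio of 0.780. A single copy on KB882139.1 was at 9.34, with 3504 cave and 358 surface calls. Further copies were at 0.323 (2922 and 8669 calls, KB871745.1) and 0.435 (4384 and 9647 calls, KB871739.1). Almost no RNA of these 3 copies was counted, with 0 to 8 reads in any library.

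CAMSAP3, which binds the minus ends of microtubules, had the most calls of any named member. The 33466 bp copy on KB872068.1 (176917 to 210382) held 565202 cave and 121163 surface calls, a ratio of 4.46, and the second copy in the table was at 1.01. Upstream of the member copy the ratio was 1.06. Its RNA counts were 2021 and 2648 cave-labelled, against 1557 and 2693 surface-labelled. The RNA groups overlapped, and the log2 fold change of 0.53 ± 0.35 (SE) did not pass edgeR's quasi-likelihood test (Benjamini-Hochberg adjusted p = 0.493).

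In the immune classes, the members with more cave calls were trim35-1, a tripartite motif protein, at 4.06 (7962 cave and 1876 surface calls) and the chemokine ccl36.1 at 2.28 (452 and 189 calls). They stood alone among 55 TRIM and 25 chemokine genes. The adaptor tyrobp, which carries activating signals in myeloid cells, was at 2.73. On the low side were IGKC, an immunoglobulin light chain constant region gene, at 0.440 (22258 cave and 48428 surface calls), the interferon regulatory factor irf8 at 0.475 (13332 and 26846 calls), the thymocyte gene tespa1 at 0.358 and the nuclease dnase1l3 at 0.410. znf1010 was 1 of 135 measured zinc finger genes and reached 3.28, and the trace amine receptor taar11 was 1 of 62 odorant and taste receptor genes and reached 0.474. The lists of NLR, MHC, histone, globin, protocadherin, keratin, crystallin, lectin and mucin, protease, P450, claudin and transporter genes held no member, the largest being the transporters with 436 measured genes. Of all 15057 measured genes with a gene symbol that were not small noncoding RNAs, only 14 had more and 16 fewer cave calls. At such shares, most of these lists would be likely to hold no member. Where a list held 1, including IGKC among 6 immunoglobulin and T cell receptor genes, it rested on that single gene. Whether such lists differ from named genes in general was not tested. No GIMAP or mitochondrial genome gene was found by its symbol.

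Housekeeping and signalling genes among the members included arrb2a, a beta-arrestin that ends receptor signalling, at 2.67 (24768 cave and 8890 surface calls). Others with more cave calls were the deacetylase hdac10 at 2.43, the semaphorin receptor plxnc1 at 2.33, the proteasome-associated deubiquitinase uchl5 at 2.19, the mitochondrial ribosomal protein mrpl1 at 2.20, the replication licensing inhibitor gmnn at 2.19 and usf3 at 2.17. Fewer cave calls were found over calcr, the calcitonin receptor (0.265, 111592 cave and 402832 surface calls over 101285 bp), cax2 (0.346), cad, the enzyme that starts pyrimidine synthesis (0.423, 44006 and 99462 calls), rsad1 (0.454), chchd2 (0.463), the sulfotransferase gene CHST3 (0.465), STARD10 (0.476, 131244 and 263599 calls), the small GTPase gene RHOA (0.479) and vox, a ventralizing homeobox gene (0.490). Upstream of the genes with more cave calls the ratio was near 1 at usf3 (0.970), mrpl1 (1.03) and gmnn (1.19), higher at uchl5 (1.71), plxnc1 (2.53) and hdac10 (2.73), and on the opposite side of 1 at arrb2a (0.641). Upstream of those with fewer it was between 0.829 at cad and 1.25 at calcr, apart from RHOA at 0.620. The RNA of none of these genes passed the test. RHOA, for example, had 28439 and 26984 cave-labelled counts and 24680 and 26281 surface-labelled, with a log2 fold change of 0.47 ± 0.19 (SE; edgeR, Benjamini-Hochberg adjusted p = 0.270).

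Members were also counted against 21 genes known from work on eye, lens and pigment development in cavefish, such as rho, crx, pax6a, shha, cryaa and oca2. Symbols of 16 were found, on 17 genes, with ratios of 0.709 to 1.09. None was a member, and none had a member within 3 genes on its scaffold. With 14 and 16 members among the 15057 named genes that are not small noncoding RNAs, a list this short would seldom hold one.

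The upstream region, counted separately in the table, was also unequal at most genes with an excess of cave calls and at a minority of those with a deficit. Upstream calls come from the same libraries and adjoining sequence, so they extend the description and do not test it. With 50 or more upstream calls, 195 of 329 genes with more cave calls (59.3%) also had an upstream ratio of 2 or more, against 4.96% of all measured genes, and the median upstream ratio was 2.42. Among genes with fewer cave calls, 24 of 119 (20.2%) had an upstream ratio of 0.5 or less, against 1.35% of all measured genes. Their median upstream ratio was 0.899, and 56 (47.1%) lay between 0.8 and 1.25. Genes with a deficit in the body and a nearly even upstream region included U4 on KB871834.1 (upstream 0.845) and U2 on KB871754.1 (upstream 0.905).

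Many members lay on small scaffolds, pieces of the assembly not joined to longer ones. Scaffolds with at most 2 annotated genes held 109 of the genes with more cave calls (28.4%) and 38 of those with fewer (30.2%), against 7.51% of the genes inside the limits. Scaffolds whose last gene ended before 50 kb held 27.3% and 34.9%, against 7.24%. A start within 100 bp of the scaffold's own start was recorded for 27 genes with more cave calls (7.03%) and 11 with fewer (8.73%), against 1.70%. The 384 genes lay on 284 scaffolds and the 126 on 114, of 2857 measured, and 19 scaffolds held both kinds. On one of these, KB873489.1, ENSAMXG00000028921 had 426 cave and 23 surface calls (ratio 17.0) and the only other gene, ENSAMXG00000028076 at 9928 to 12237, had 588 cave and 2113 surface calls (ratio 0.267).

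Excess cave coverage extended over neighbouring genes in some places. Of the 384 genes, 95 (24.7%) stood next to another such gene, in 33 runs of 2, 7 runs of 3 and 2 runs of 4. Of the 126 genes with fewer cave calls, 6 (4.76%) did so, in 3 pairs. The sets make up 1.55% and 0.507% of measured genes, and the part of set size in this contrast was not tested. The 3 pairs were ENSAMXG00000025729 and ENSAMXG00000025730 on KB882085.1 (0.181 and 0.417), ENSAMXG00000011457 and ENSAMXG00000011481 on KB872102.1 (0.478 and 0.160), and ENSAMXG00000027343 with a U6 copy on KB871912.1 (0.498 and 0.401). The measured genes flanking members, whether single or in runs, were mostly even. Their median ratio was 1.03 beside genes with more cave calls and 0.961 beside those with fewer. Between 0.8 and 1.25 lay 63.2% and 74.7% of flanks, against 86.2% of all measured genes. With single members counted as runs, 90 of 331 runs with more cave calls and 29 of 123 with fewer had no measured flank. Overlap with another gene, which makes genes share calls, was recorded for 60 genes with more cave calls (15.6%) and 15 with fewer (11.9%), against 13.6% of the others. With 1 gene kept of each overlapping set, 72 members stood next to another of their side, against 101 with all genes.

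KB872413.1 held 1 of the 2 high runs of 4 genes, and all 4 of its measured genes, of 5 annotated, were members. Over 66 to 136959, ENSAMXG00000006211 had 5302 cave and 903 surface calls (5.61), ENSAMXG00000027789 had 1332 and 321 (3.96), ENSAMXG00000028414 had 1764 and 22 (73.4) and ENSAMXG00000027452 had 2888 and 1272 (2.17). RNA was sparse here. ENSAMXG00000006211 had 0 and 4 cave-labelled counts against 104 and 68 surface-labelled, giving a log2 fold change of -4.98 with a standard error of 1.4 that did not pass (edgeR, Benjamini-Hochberg adjusted p = 0.147).

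On KB871671.1 a block of 4 genes was embedded in a longer scaffold. From 480249 to 587828 the ratios were 3.95 at ENSAMXG00000019427, 2.47 at ENSAMXG00000019430, 2.34 at ENSAMXG00000019434 and 2.04 at ENSAMXG00000019439. The last of these lies inside the one before it, which also overlaps ENSAMXG00000019430, so these 3 share calls. Toward both ends the ratio returned to near 1, through 1.59 and 1.18 (higd1a, a mitochondrial respiratory factor) on one side and 1.23 and 1.02 on the other. None of the 4 genes passed the RNA test.

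KB882131.1 held a sharper step. ENSAMXG00000003753 was even at 1.12 with 169680 cave and 145553 surface calls, and the next 3 genes, between 2734056 and 2764546, were at 11.7 (474 and 38 calls), 11.1 (2110 and 181) and 2.78 (246 and 84). After a gene at 1.79 and a further member at 2.69, the ratio was 0.892 and then 0.827 at cideb, a lipid droplet protein gene. On KB872374.1, 4 of 5 genes were members, at 2.69, 4.55, 16.4 and 2.10, with the one between the first pair at 1.68. ENSAMXG00000012146 (41380 to 85416, with 13836 cave and 2907 surface calls) contains the gene at 16.4 and overlaps the gene at 2.69 (21 to 51961). It therefore shares calls with both. Its RNA passed the test: counts were 97 and 71 cave-labelled against 1401 and 1478 surface-labelled, giving a log2 fold change of -3.76 ± 0.41 (SE; edgeR, Benjamini-Hochberg adjusted p = 0.0146).

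**Figure D3:**
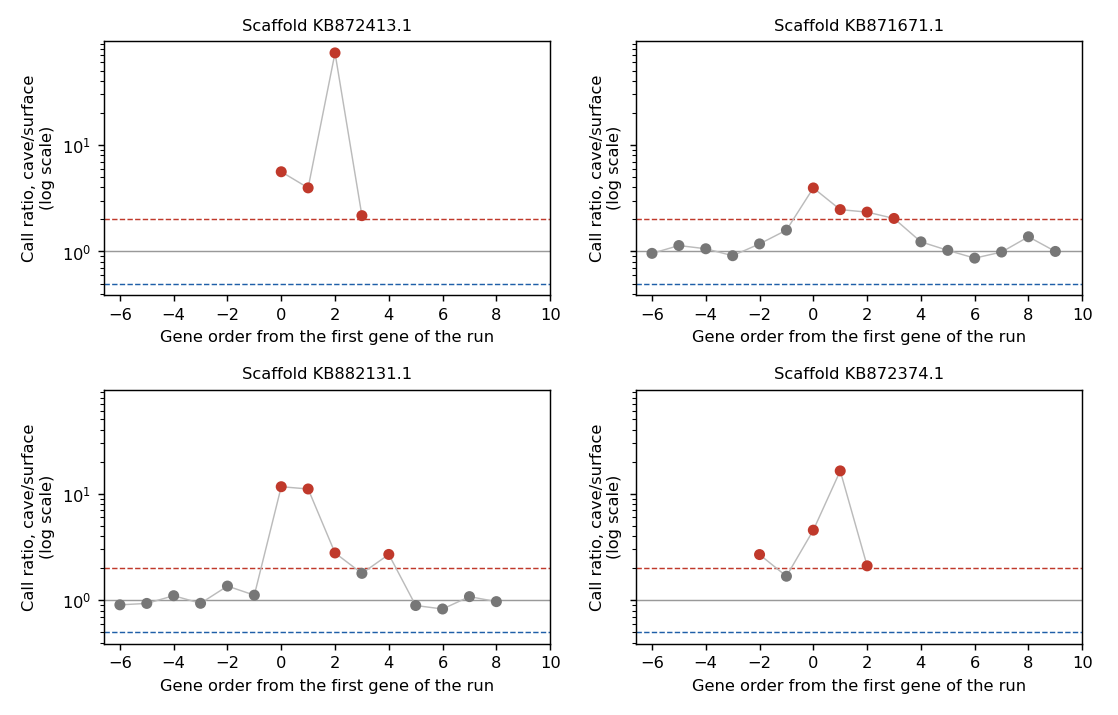
Gene body call ratio, cave over surface, on a log scale for genes in order along 4 scaffolds, counted from the first gene of each run, with members of ratio 2 or more in red, other genes in grey, and dashed lines at 2 and 0.5. On KB871671.1 and KB882131.1 the ratio returns to near 1 on both sides, while on KB872413.1 all 4 measured genes exceed 2.

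The scaffold with the most members was KB871796.1, where 7 of 25 measured genes had more cave calls, at ratios of 2.03 to 8.12. ENSAMXG00000002843, the longest at 835656 to 876108, had 13390 cave and 4728 surface calls. It had no RNA read in either cave-labelled library, against 75 and 79 in the surface-labelled ones. This RNA difference did not pass the test (edgeR, Benjamini-Hochberg adjusted p = 0.0582). On 8 scaffolds with 2 or more measured genes, every one of these genes had more cave calls, and 82 members with more and 29 with fewer cave calls were the sole measured gene of their scaffold.

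Methylation over the members was set beside their coverage, although the calls are those that chose the genes and each library stands alone. Genes with more cave calls had medians of 85.9% in cave and 80.9% in surface, and a median difference of 3.17 percentage points, against 0.95 points over all measured genes. A difference of 10 points or more was seen upward in 69 of 380 (18.2%), against 3.08% of all genes, and downward in 28 (7.37%), against 1.9%. Genes with fewer cave calls had medians of 85.5% in cave and 85.7% in surface. Among 125 of them, 14 (11.2%) were higher and 19 (15.2%) lower by 10 points or more. By construction a member has fewer calls in one of the libraries, and the part of that in these shares was not tested.

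Among genes with more cave calls, the largest methylation differences at 50 or more calls per library were in genes without a symbol. ENSAMXG00000028492 on KB871893.1 was 75.7% methylated in cave and 9.96% in surface, from 716 and 251 calls. ENSAMXG00000028988 on KB871630.1 was at 87.1% in cave and 24.2% in surface, from 448 and 66 calls. ENSAMXG00000020251 (91.8% and 39.3%) and ENSAMXG00000024520 (96.4% and 52.9%) rested on 56 and 51 surface calls. In the set with fewer cave calls, the 81 bp gene ENSAMXG00000027218 was at 25.8% in cave and 71.7% in surface (426 and 1080 calls) and the Metazoa_SRP copy on KB871834.1 at 3.97% and 34.6% (1612 and 7416 calls). The 5S rRNA copy on KB882212.1 went the other way, at 64.2% in cave and 34.9% in surface (15818 and 48303 calls). Names such as these, with near copies elsewhere, can mix reads of differently methylated copies.

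RNA was not used to choose the genes. In the set with more cave calls, cave-labelled RNA was lower in a larger share of genes than over all genes. Under the labels as given this runs against the DNA, and if the RNA or the bisulfite labels were exchanged the same shares would run with it. Comparing CPM without any filter, both cave-labelled libraries lay below both surface-labelled ones in 147 of the 384 genes with more cave calls (38.3%), against 26.5% of all measured genes. They lay above in 68 (17.7%), against 24.1%. Of the 126 genes with fewer cave calls, cave-labelled counts were below in 20 (15.9%), under the 26.5% of all measured genes, and above in 34 (27.0%), close to the 24.1% of all measured genes. Genes with no reads in any library can be in neither count. They numbered 37 with more cave calls (9.64%) and 17 with fewer (13.5%), against 1.94% of genes inside the limits.

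The edgeR quasi-likelihood test over 22850 genes called 633 genes (2.77%) higher and 93 (0.407%) lower, cave-labelled minus surface-labelled. Of the 384 genes with more cave calls, 263 passed the filter on low counts; 9 were higher and 12 lower. Lower calls thus formed a larger share of these genes than of all genes, while higher calls were near the background. The median log2 fold change of those 263 was -0.55, against 0.02 over all genes tested. Of the 126 genes with fewer cave calls, 80 passed the filter, with 5 higher, 2 lower and a median of 0.42, which was 0.05 without cave replicate 1. When surface replicate 1 or surface replicate 2 was left out, the test called 0 genes, and without cave replicate 1 it called 23 higher and 95 lower among genes with more cave calls and 16 higher and 18 lower among those with fewer. A gene can pass that filter through its higher group alone, so these counts and medians describe the genes that passed and not all members.

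**Figure D4:**
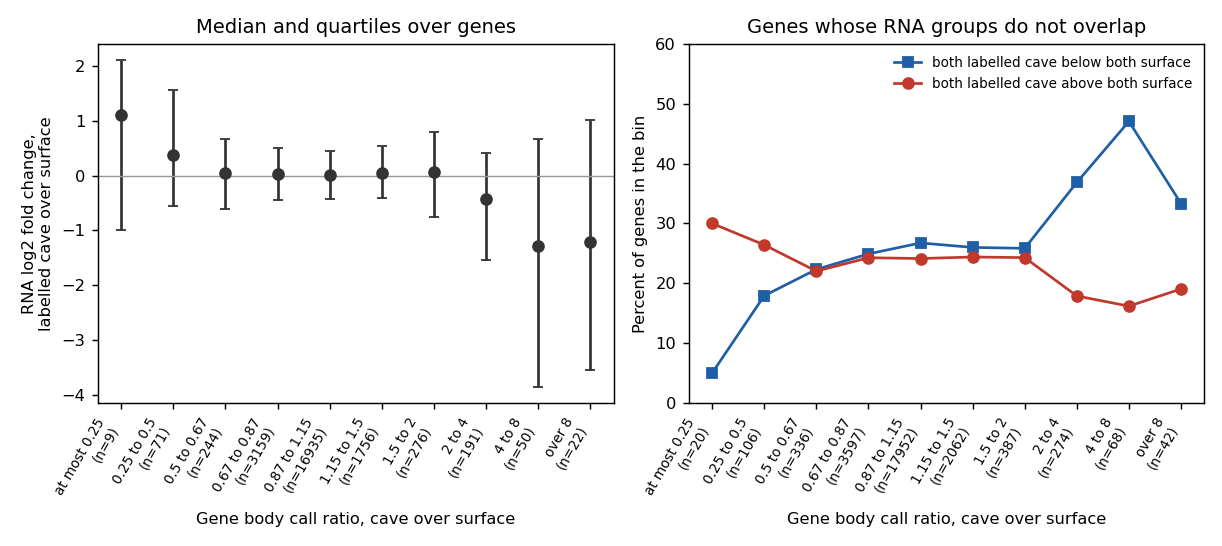
Left, median and quartiles of the RNA log2 fold change (cave-labelled over surface-labelled) of genes binned by DNA call ratio; right, percent of genes per bin whose 2 cave-labelled libraries both lie below (blue squares) or above (red circles) both surface-labelled ones. The median is near 0 between ratios of 0.5 and 2 and is -0.43 at 2 to 4 and -1.29 at 4 to 8, where 47.1% of 68 genes had lower counts in both cave-labelled libraries.

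In bins of the DNA ratio with 20 or more tested genes, the median RNA difference departed from 0 mainly outside the limits. Between ratios of 0.5 and 2, the median RNA log2 fold change per bin was between 0.02 and 0.06. From 2 to 4 it was -0.43 over 191 tested genes (quartiles -1.54 and 0.42). From 4 to 8 it was -1.29 over 50 (-3.85 and 0.68), and over 8 it was -1.21 over 22 (-3.55 and 1.01). Between 0.25 and 0.5 it was 0.38 over 71 (-0.55 and 1.56). The quartiles thus lay on both sides of 0 in each of these bins, and only genes that passed the filter entered them. The upstream region gave a further split, whose difference was not tested. Of the 195 genes with an upstream ratio of 2 or more, 45.6% had lower and 19.0% higher counts in both cave-labelled libraries, against 29.9% and 14.9% of the 134 whose upstream region did not pass and 26.5% and 24.1% of all measured genes. Of the 24 low genes with a low upstream region, 9 (37.5%) had higher and 1 (4.17%) lower counts in both cave-labelled libraries, beside the same 24.1% and 26.5% of all measured genes.

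Genes with reads in one group only can be counted without a fitted fold. With more cave calls, 15 genes (3.91%) had no read in either cave-labelled library and 20 or more in the surface-labelled ones together, against 0.226% of the genes inside the limits. The reverse held for 6 genes (1.56%), against 0.378%, so the shares in both directions exceeded those of the genes inside the limits. With fewer cave calls, 0 genes were empty in this way in the cave-labelled group and 2 (1.59%) in the surface-labelled group. ENSAMXG00000024829 on KB874230.1 (3474 to 4991) had 1476 cave and 192 surface DNA calls, a ratio of 7.32. Its RNA counts were 0 and 0 cave-labelled, against 412 and 402 surface-labelled. With the empty group set to a floor of 6 counts, it was at least 113-fold lower (edgeR, Benjamini-Hochberg adjusted p = 0.0175).

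ENSAMXG00000027304 (KB872032.1, 77 to 2230) repeated this with 1096 cave and 47 surface DNA calls and RNA counts of 0 and 0 cave-labelled, against 194 and 175 surface-labelled. The groups did not overlap, and it was at least 51.1-fold lower (edgeR, Benjamini-Hochberg adjusted p = 0.0318). Its gene body was 10.04% methylated in cave and 44.7% in surface. ENSAMXG00000028785, also with reads in 1 group only, ran the other way: RNA counts were 225 and 47 cave-labelled and 0 and 0 surface-labelled, at least 54.5-fold higher, without passing the test (edgeR, Benjamini-Hochberg adjusted p = 0.0641).

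Among the other called genes with more cave DNA, the 2 with the most DNA calls also had the highest surface-labelled counts. ENSAMXG00000028856 had 172 and 116 cave-labelled counts, against 13210 and 18957 surface-labelled. Both cave-labelled libraries were far below. The log2 fold change was -6.45 ± 0.29 (SE; edgeR, Benjamini-Hochberg adjusted p = 0.00200). ENSAMXG00000025407, chosen after its values were seen, had 448 and 232 cave-labelled counts against 24221 and 30688 surface-labelled, giving a log2 fold change of -6.01 ± 0.35 (SE; edgeR, Benjamini-Hochberg adjusted p = 0.00288).

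ENSAMXG00000018298 (KB871667.1, 715876 to 729135; DNA ratio 4.31) had 8 and 0 cave-labelled RNA counts, against 1278 and 1329 surface-labelled. Its log2 fold change was -8.02 ± 1.19 (SE; edgeR, Benjamini-Hochberg adjusted p = 0.0342). ENSAMXG00000010874 (KB882142.1; DNA ratio 6.45) had 4 and 2 counts against 605 and 635, with a log2 fold change of -7.31 ± 0.66 (SE; edgeR, Benjamini-Hochberg adjusted p = 0.00916). Also nearly without reads in the cave-labelled libraries were ENSAMXG00000028490 (4 and 2 counts against 509 and 566; DNA ratio 2.04) and ENSAMXG00000015558 (0 and 1 against 206 and 194; DNA ratio 2.35), at adjusted p-values of 0.0101 and 0.0296 from edgeR after Benjamini-Hochberg adjustment. In each of these genes the groups did not overlap. ENSAMXG00000015558 lies inside ENSAMXG00000015538, itself a member at a DNA ratio of 2.16, so the DNA calls of this pair are shared.

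Agreement in direction between DNA and RNA also occurred. si:ch211-193k19.2 on KB882126.1 (1241760 to 1243296) had 1026 cave and 234 surface DNA calls, a ratio of 4.18. RNA counts were 263 and 386 cave-labelled, against 0 and 0 surface-labelled, at least 130-fold higher (edgeR, Benjamini-Hochberg adjusted p = 0.0203). Both copies of si:ch1073-155h21.1, chosen after their values were seen, did likewise in a run of 3 members at the end of KB882202.1. The copy at 6296116 to 6301377 (DNA ratio 2.84) had 750 and 899 cave-labelled RNA counts against 20 and 31 surface-labelled, giving a log2 fold change of 5.39 ± 0.53 (SE; edgeR, Benjamini-Hochberg adjusted p = 0.0106). The copy at 6338901 to 6344684 (DNA ratio 5.80) had 1101 and 1282 against 50 and 55, giving a log2 fold change of 4.86 ± 0.45 (SE; edgeR, Benjamini-Hochberg adjusted p = 0.00944). Reads of such near copies can be shared, and the copy with the ratio of 5.80 lies inside the third gene of the run. snx19a, a sorting nexin gene of 75896 bp on KB882298.1, had a DNA ratio of 2.13 and an upstream ratio of 0.946, and its RNA counts were 232 and 222 cave-labelled, against 2 and 12 surface-labelled (log2 fold change 5.40 ± 0.94 SE; edgeR, Benjamini-Hochberg adjusted p = 0.0495).

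In the set with fewer cave calls, 7 of the 80 tested genes were called. Of the 80, 5 (6.25%) had more RNA in the cave-labelled libraries and 2 (2.5%) had less, against 2.77% and 0.407% of all genes tested. The split of 5 to 2 was less one-sided than the 633 higher and 93 lower calls over all genes. With a replicate block the calls of this set were 1 higher and 2 lower. ENSAMXG00000012629 on KB872323.1 (126478 to 129316) had 6060 cave and 15561 surface DNA calls, a ratio of 0.373. Its RNA counts were 474 and 434 cave-labelled, against 0 and 0 surface-labelled, at least 182-fold higher (edgeR, Benjamini-Hochberg adjusted p = 0.0124). ENSAMXG00000013827 (DNA ratio 0.396) had 171 and 126 cave-labelled counts and 0 and 2 surface-labelled, giving a log2 fold change of 7.40 ± 1.16 (SE; edgeR, Benjamini-Hochberg adjusted p = 0.0378). The other higher genes were ENSAMXG00000009296 (88 and 194 against 4 and 4; DNA ratio 0.410), ENSAMXG00000027281 (372 and 307 against 24 and 32; 0.331) and the 81 bp ENSAMXG00000027218 (270 and 212 against 28 and 31; 0.378), with log2 fold changes of 5.49, 3.95 and 3.37. Their adjusted p-values in the edgeR test with Benjamini-Hochberg adjustment were 0.0444, 0.0281 and 0.0469.

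In the same set 2 called genes were lower. ENSAMXG00000024979 on KB872067.1 (184511 to 191085; 37594 cave and 85685 surface DNA calls) had 2600 and 1472 cave-labelled RNA counts, against 16286 and 19792 surface-labelled. The groups lay far apart, with a log2 fold change of -2.82 ± 0.27 (SE; edgeR, Benjamini-Hochberg adjusted p = 0.0104). ENSAMXG00000024802 on KB882098.1, at the lower limit with a DNA ratio of 0.499, had 1776 and 1456 counts against 7457 and 7959, giving a log2 fold change of -1.91 ± 0.21 (SE; edgeR, Benjamini-Hochberg adjusted p = 0.0162). Both were lower in DNA and in RNA under the labels as given.

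**Figure D5:**
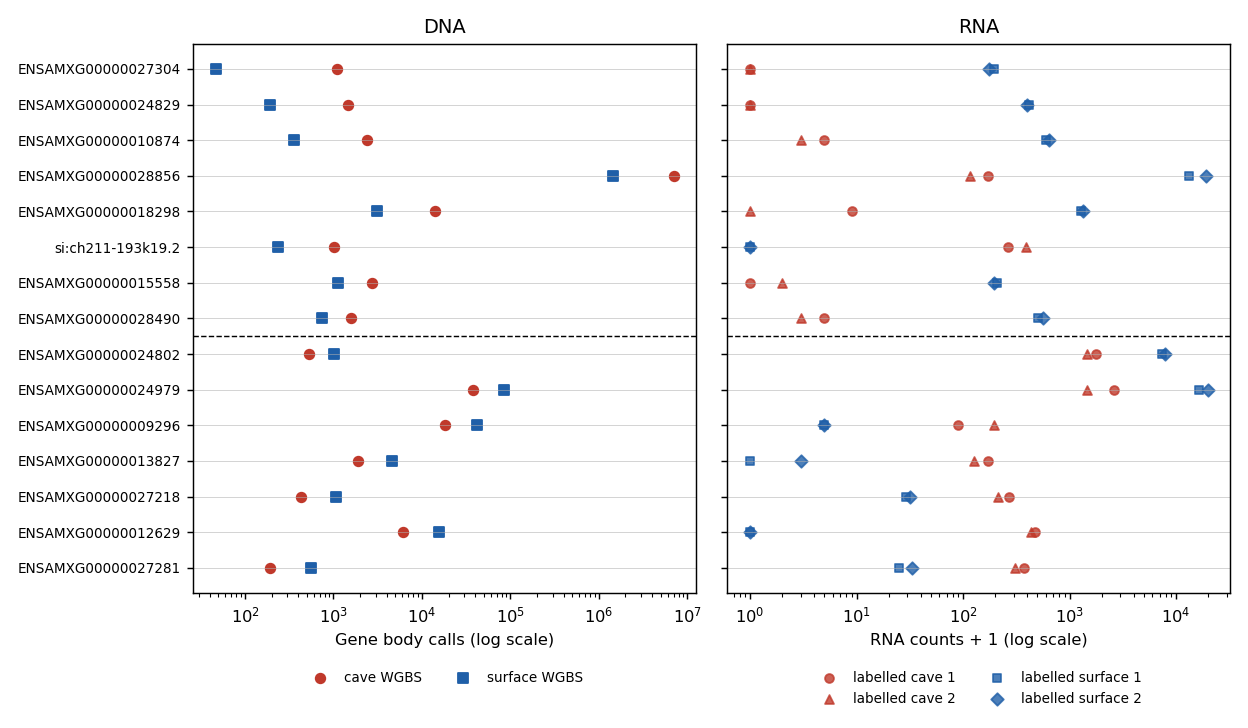
DNA calls (left) and RNA counts plus 1 (right), both on log scales, of the 15 members named for their RNA test result, ordered by DNA ratio with genes of ratio 2 or more above the dashed line. The 8 genes above the line are those with the largest RNA fold changes of 21 called, of which 9 were higher and 12 lower. Of these 8, 7 have lower RNA counts in both cave-labelled libraries, the exception being si:ch211-193k19.2. Below the line 5 of 7 have fewer cave DNA calls and higher cave-labelled RNA counts, beside 633 higher and 93 lower calls over all genes.

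The libraries were made after poly(A) enrichment, and most small noncoding RNAs carry no poly(A) tail. No RNA read was counted for 5 of the 8 small noncoding RNA members with more cave calls and for 10 of the 26 with fewer. U1 on KB871869.1 had 456 and 62 cave-labelled counts and 2404 and 70 surface-labelled, with as much spread within as between groups. SNORA84, which overlaps another gene, had 122 and 144 against 171 and 149. Neither passed the edgeR test (Benjamini-Hochberg adjusted p = 0.564 for U1 and 0.956 for SNORA84).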

How the data were processed

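The authors deposited raw counts: RNA reads per gene, and methylated or unmethylated calls over each gene body and its upstream region, per the file headers. Per the submitters' processing notes, Trimmomatic, Bismark, STAR, Subread, featureCounts and DESeq2 were used, with no version stated. Not given in the sources used here are the build, how wide an upstream region is, which cytosines were scored, strand use and the handling of duplicates. Coordinates are the files' own. A further deposited table of the authors' comparison was not used.

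Groups came from the labels. Call ratios, methylation percentages and exact 95% intervals were computed with Python 3.11.15, pandas 2.3.3 and scipy 1.17.1. These have 1 library per morph and no test. RNA counts were tested over all genes with edgeR 4.0.16 in R 4.3.3 (quasi-likelihood, TMM scaling, filterByExpr), labelled cave minus labelled surface, 2 libraries against 2, at a Benjamini-Hochberg adjusted p of 0.05. The RNA script and the ratio were tested on simulated data. Alternatives were DESeq2 1.42.0, other scalings, filters, limits and minimum calls, leaving out each RNA library, and a replicate block. For a group without RNA counts, a floor of 6 counts was set, taken as 3 read pairs, and the at-least folds depend on that choice. With 2 libraries per group, precision is limited by their number.

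Members and lists were chosen with earlier results of these data known. Genes were picked for naming per side, and not every pick is described. By ratio, the 10 symbols and 3 genes of any name farthest from 1 were picked. The 4 longest runs and up to 8 RNA calls by fold change were added. Further picks were up to 3 symbols per class, genes at the limits, and any on or near the eye list. The last were up to 4 with the largest methylation difference at 50 or more calls per library, and up to 4 with reads in 1 group only. Among genes with fewer cave calls, ENSAMXG00000026966 (methylation) is not described. Nor are ENSAMXG00000025630, ENSAMXG00000028135 and ENSAMXG00000018591 (reads in 1 group only).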

Additional observations from a re-analysis of the deposited data

How the results depend on the processing

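Which genes counted as unequal depended mainly on the limit: at 3 (or its inverse) 182 genes had more and 37 fewer cave calls, and at 1.5 there were 771 and 462. Halving the even cave calls, other call minimums and other scalings left 292 to 408 and 92 to 138 genes. Gene body differences of 20 points or more in methylation were found in 44 members, against 130 at 10 points. RNA calls among members depended on tool and library. For genes with more cave calls the 21 calls of the edgeR test became 62 with DESeq2 (20 higher, 42 lower), 12 with a replicate block, 11 at the limit of 3, and 0 to 118 when 1 library was left out. For genes with fewer cave calls the 7 calls became 13 with DESeq2, 3 with the block (1 higher, 2 lower), 1 at the limit of 3, and 0 to 34 when 1 library was left out. Over all genes the 726 calls became 2349 with DESeq2, 353 with the block, and 0 to 7192 when 1 library was left out. Without surface replicate 1 or surface replicate 2, edgeR made no call, while 41 and 42 of the genes with more cave calls, 11 and 18 of those with fewer, and 1895 and 1605 of all genes had an unadjusted p under 0.05. The remaining lone library is then assumed to vary like the other group. Without cave replicate 1 the genes with more cave calls had 23 higher and 95 lower calls, and without cave replicate 2 31 and 52; those with fewer had 16 higher and 18 lower, then 21 and 6. Their median log2 fold change was between -1.31 and -0.38 with 1 library left out, and that of genes with fewer cave calls between 0.05 and 0.45. The 15 members named for the RNA test kept their calls under DESeq2, the other scaling, no filter and without either cave replicate; 6 lost them with the block and all 15 without either surface replicate, none changing direction. Same-numbered RNA libraries did not deviate together (correlation -0.0709 over 22850 genes). With 2 libraries per group this is a single correlation, which cannot settle whether the numbers pair the samples. The cause of these changes was not tested. A single bisulfite library per morph gives no replicate spread, and 200 calls may stem from few reads.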
